A study of Mus musculus with 15 samples.

Results

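The comparison is between control blood stem and progenitor cells that carried a GFP vector and were collected 20 weeks after transplantation and the same kind of cells collected 12 weeks after it. The members are the arrays whose titles give GFP+ LSK cells at 20 or 12 weeks, 3 arrays at each time and 6 of the 15 arrays of the series. LSK cells are the lineage-negative, Sca-1+, Kit+ fraction of mouse bone marrow. Per the series text, marrow of female C57Bl/6 mice given 5-FU (5-fluorouracil, which kills dividing cells) was transduced with MSCV-ires-GFP, a murine stem cell virus vector without an added gene, made in GPE+86-derived producer cells. The transduced marrow was transplanted into lethally irradiated mice of the same strain, and GFP+ LSK cells were sorted later, so both times share the drug treatment of the donors, the viral vector, the irradiated host and the gate on GFP. The other arm of the series, used here only for 1 contrast, carried MSCV-HOXB4-ires-YFP and was sampled at 6, 12 and 20 weeks, with 3 arrays each; its 6-week arrays serve only the estimate of the spread. HOXB4, a homeobox protein, expands blood stem cells when it is overexpressed. The titles give 20 weeks as the last time and the series text gives 24 weeks; the times of the titles are used. GFP cells at 6 weeks were not analysed here. Nothing in the labels ties the 3 arrays of a group to separate mice or to pools, so each p-value reflects the variation among arrays alone, and part or all of it may be technical.

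After transplantation, blood cell production is carried first by short-lived progenitors and later by long-term stem cells. LSK cells stand at the top of this tree and divide into long-term stem cells and several multipotent progenitors, some of which lean toward the megakaryocyte and erythrocyte lineages and others toward the myeloid or lymphoid lineages. Stem cells and early megakaryocyte progenitors share several genes, among them those for the transcription factors Tal1 and Gfi1b and the integrin subunit Itga2b. Neutrophil granule proteins are normally made in stages after the LSK state, in promyelocytes, myelocytes and metamyelocytes.

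All values are log2 RMA signals of 1 probe set a gene, and all differences are log2 differences, 20 minus 12 weeks, with the standard error (SE) of the model. Cells were not cultured before extraction, and labelled cDNA was made by amplification of 20 ng of total RNA. Replicate arrays correlated between 0.983 and 0.993 at 20 weeks and between 0.992 and 0.993 at 12 weeks, and arrays of the 2 times correlated between 0.979 and 0.982. Replicate 3 of 20 weeks correlated least with its own group, at 0.989 and 0.983. Between replicate arrays, the SD of a gene had a median of 0.145 at 20 weeks and of 0.128 at 12 weeks. Of the markers that define the gate, Ly6a (Sca-1) was not analysed here. Kit, the receptor for stem cell factor, had 8.44, 8.45 and 8.33 at 20 weeks, against 8.69, 8.79 and 8.62 at 12 weeks, a difference of -0.30 ± 0.13 (adjusted p = 0.317, limma).

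GFP cells at 20 weeks had more RNA of neutrophil granule, monocyte and immunoglobulin genes than those at 12 weeks, and less RNA of several megakaryocyte and stem cell genes and of regulators of erythroid and megakaryocyte fate. Of 9 markers of maturing red cells, 0 were called lower and 1 was called higher. At an adjusted p under 0.05 in limma's fit over 17097 genes, 406 genes were called, 2.37% of those tested. Of these, 211 were higher at 20 weeks (1.23%) and 195 were lower (1.14%). The rises were larger than the falls: 37 genes were at least 4-fold higher and 5 at least 4-fold lower, and all of the 13 genes past 8-fold were higher. The median difference of all genes was -0.04, and 42.0% of all genes had a difference above 0. The near balance of directions depended on the setting, with 42.9% of calls higher with array weights, 45.3% with the 6 GFP arrays alone and 65.1% without replicate 1 of 12 weeks. The arrays of the 2 times did not overlap for 405 of the 406 genes, against 22.2% of all genes tested, and the exception was Bhlha15, chosen here because it is the exception. With 1 array left out, between 192 (without replicate 1 of 12 weeks) and 503 (without replicate 3 of 20 weeks) genes were called, and 146 of the 406 were called in all 6 such fits. In these bulk samples, fewer cells of a type and less RNA per cell cannot be told apart.

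**Figure D1:**
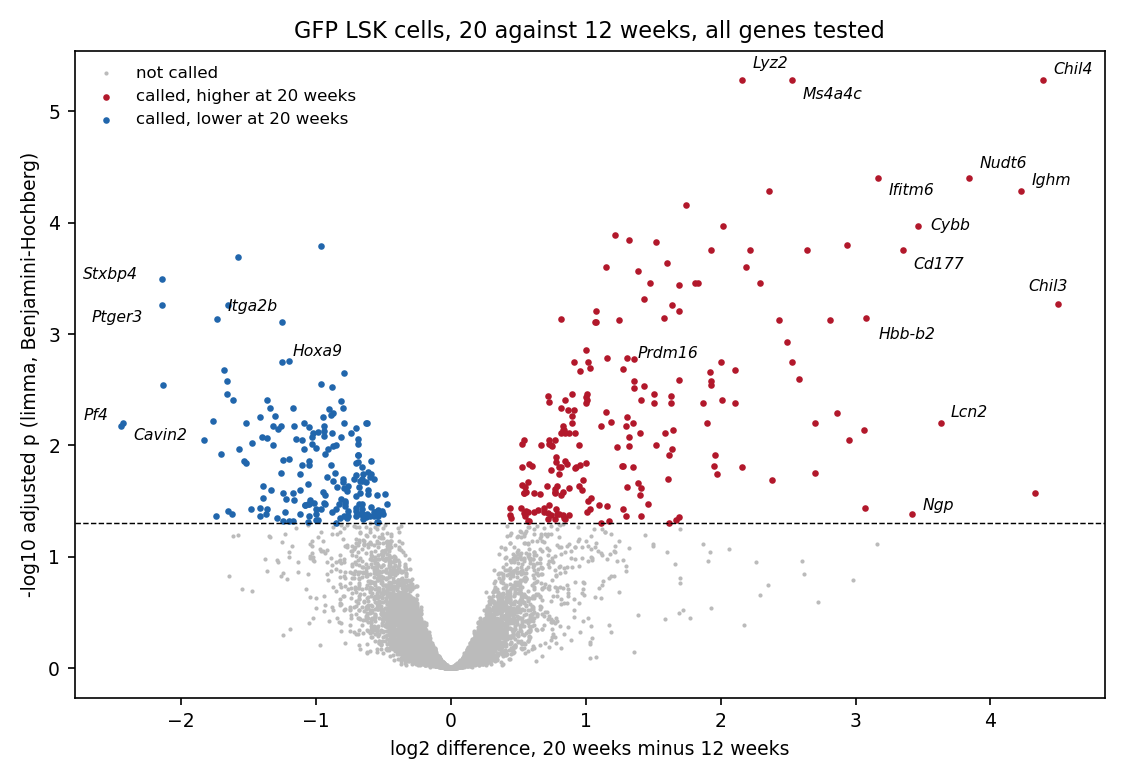
Each point is 1 of the 17097 genes, with the log2 difference of GFP LSK cells, 20 minus 12 weeks, on the x axis and the minus log10 of the limma adjusted p on the y axis; the dashed line marks 0.05. The 211 genes called higher at 20 weeks reach 4.50 (Chil3) and the 195 called lower reach -2.44 (Pf4).

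Genes of neutrophil secondary granules and other mature neutrophil markers rose together. Of 14 such markers measured, 9 were called higher and 0 lower (64.3%, against 2.37% of all genes), and the median of the list was 3.01. All 20-week arrays stood above all 12-week arrays for 10 of the 14, against 8.04% of all genes tested. The largest rise of all genes was that of Chil3, which encodes a chitinase-like protein that myeloid cells secrete. Chil3 had 9.54, 9.71 and 9.42 at 20 weeks, against 5.56, 4.95 and 4.65 at 12 weeks, a difference of 4.50 ± 0.56 (adjusted p = 0.000535). The groups lay far apart, and the 12-week arrays varied more among themselves than the 20-week arrays did. The RefSeq sequence before the starts of the 3 markers with the largest rises is shown here because the markers moved together. Each line is the 250 bases before the gene's start on GRCm38.p6, 5′ to 3′ on the gene's own strand, and capitals mark every match to TTNCNNAA, the core of the sites that C/EBP transcription factors bind, searched on both strands. Chil3 (chr3:106167565-106167814, minus strand) held 3 matches, Lcn2 (chr2:32387740-32387989, minus strand) held 1, and Ngp (chr9:110419558-110419807, plus strand) held 3.
Chil3: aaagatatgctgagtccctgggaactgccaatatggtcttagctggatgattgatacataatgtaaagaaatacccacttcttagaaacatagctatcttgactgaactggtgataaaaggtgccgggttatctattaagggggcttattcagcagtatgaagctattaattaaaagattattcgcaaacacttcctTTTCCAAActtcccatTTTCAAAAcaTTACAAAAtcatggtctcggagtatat
Lcn2: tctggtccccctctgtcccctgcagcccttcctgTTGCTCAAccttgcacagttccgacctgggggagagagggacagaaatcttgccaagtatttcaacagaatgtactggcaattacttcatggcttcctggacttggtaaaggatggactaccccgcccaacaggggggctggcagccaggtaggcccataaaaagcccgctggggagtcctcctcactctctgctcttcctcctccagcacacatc
Ngp: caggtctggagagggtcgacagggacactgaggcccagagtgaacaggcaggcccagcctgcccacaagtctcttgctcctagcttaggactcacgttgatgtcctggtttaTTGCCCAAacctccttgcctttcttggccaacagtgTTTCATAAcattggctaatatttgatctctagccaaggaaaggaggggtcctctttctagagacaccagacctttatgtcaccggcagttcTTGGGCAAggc
At least 1 match stood in 11 of 13 windows of the neutrophil markers (84.6%). The share was 36.8% in the 32851 windows of all genes, here 27025 RefSeq genes and not only the 17097 tested. It was 36.4% in the 11 windows of megakaryocyte and platelet genes and 16.7% in the 12 windows of erythroid and megakaryocyte regulators. These windows differ in base composition, with 49.1% A or T in the neutrophil markers, 46.8% in all genes, 50.2% in the megakaryocyte genes and 40.5% in the regulators. Over all called genes the share was 44.4% of the windows of genes higher at 20 weeks and 32.4% of those of genes lower. A second motif, AGATAA, the core of sites that GATA factors bind, was searched on both strands in the same windows and stood in 23.1% of the neutrophil windows, 9.09% of the megakaryocyte windows and 16.7% of the regulator windows, against 9.99% of all windows. With 50 bases after the start added to each window, AGATAA stood in 23.1%, 27.3% and 25.0% of these, against 11.2% of all, and TTNCNNAA in 84.6%, 36.4% and 16.7%, against 40.7% of all. These 2 motifs and the windows were chosen after the values had been seen, the groups hold 11 to 13 windows each, and a match is a run of letters and not a bound site.

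Other granule genes were also higher at 20 weeks. Lcn2, which binds bacterial iron carriers, had 10.38, 10.65 and 10.37 at 20 weeks, against 7.44, 6.30 and 6.77 at 12 weeks (3.63 ± 0.64, adjusted p = 0.00632, limma). Camp, the cathelicidin antimicrobial peptide, had 10.49, 10.49 and 10.54 at 20 weeks, against 8.03, 7.12 and 7.53 at 12 weeks (2.95 ± 0.55, adjusted p = 0.00893). Ltf, lactoferrin, had 8.76, 8.79 and 9.16 at 20 weeks, against 6.78, 5.77 and 5.72 at 12 weeks (2.81 ± 0.37, adjusted p = 0.000747). In each of these, every 20-week array was above every 12-week array, and replicate 1 of 12 weeks was the highest of its group. Ngp, neutrophilic granule protein, had 10.91, 10.83 and 10.89 at 20 weeks, against 8.35, 6.67 and 7.34 at 12 weeks (3.42 ± 0.82, adjusted p = 0.0409). S100a9, a calcium-binding subunit of calprotectin, had 12.64, 12.80 and 12.55 at 20 weeks, against 10.10, 9.22 and 9.47 at 12 weeks (3.07 ± 0.71, adjusted p = 0.0362). No 20-week array of either gene came near the 12-week arrays. Both lost their call in each of the 6 fits without 1 array, with adjusted p between 0.0668 and 0.162 for Ngp and between 0.0618 and 0.129 for S100a9. S100a8, the partner of S100a9, differed by 3.16 ± 0.86 and was not called (adjusted p = 0.0761). Camp lost its call without replicate 2 of 12 weeks (adjusted p = 0.0506).

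Surface proteins of neutrophils moved with the granule genes. Cd177, a surface glycoprotein of neutrophils, had 7.70, 8.07 and 7.24 at 20 weeks, against 4.57, 4.33 and 4.07 at 12 weeks (3.35 ± 0.37, adjusted p = 0.000178, limma). Ifitm6, a membrane protein of the interferon-induced family, had 6.74, 6.81 and 7.55 at 20 weeks, against 4.03, 3.88 and 3.69 at 12 weeks (3.17 ± 0.28, adjusted p = 3.98e-05). Itgam, the CD11b integrin subunit of myeloid cells, had 6.76, 6.63 and 6.76 at 20 weeks, against 4.86, 4.83 and 4.84 at 12 weeks (1.87 ± 0.31, adjusted p = 0.00416). The groups of all 3 genes were separate, and for Itgam each time varied by little. Mmp9, Mmp8, Cxcr2 and Stfa2l1, the other measured neutrophil markers, differed by 0.33, 0.00, 0.29 and -0.05 and were not called. The summed linear signal of the 14 markers was between 17906 and 20109 on the 20-week arrays and between 1637 and 3044 on the 12-week arrays. Between 6 and 7 of the 14 markers were called with 1 of the 6 arrays left out.

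**Figure D2:**
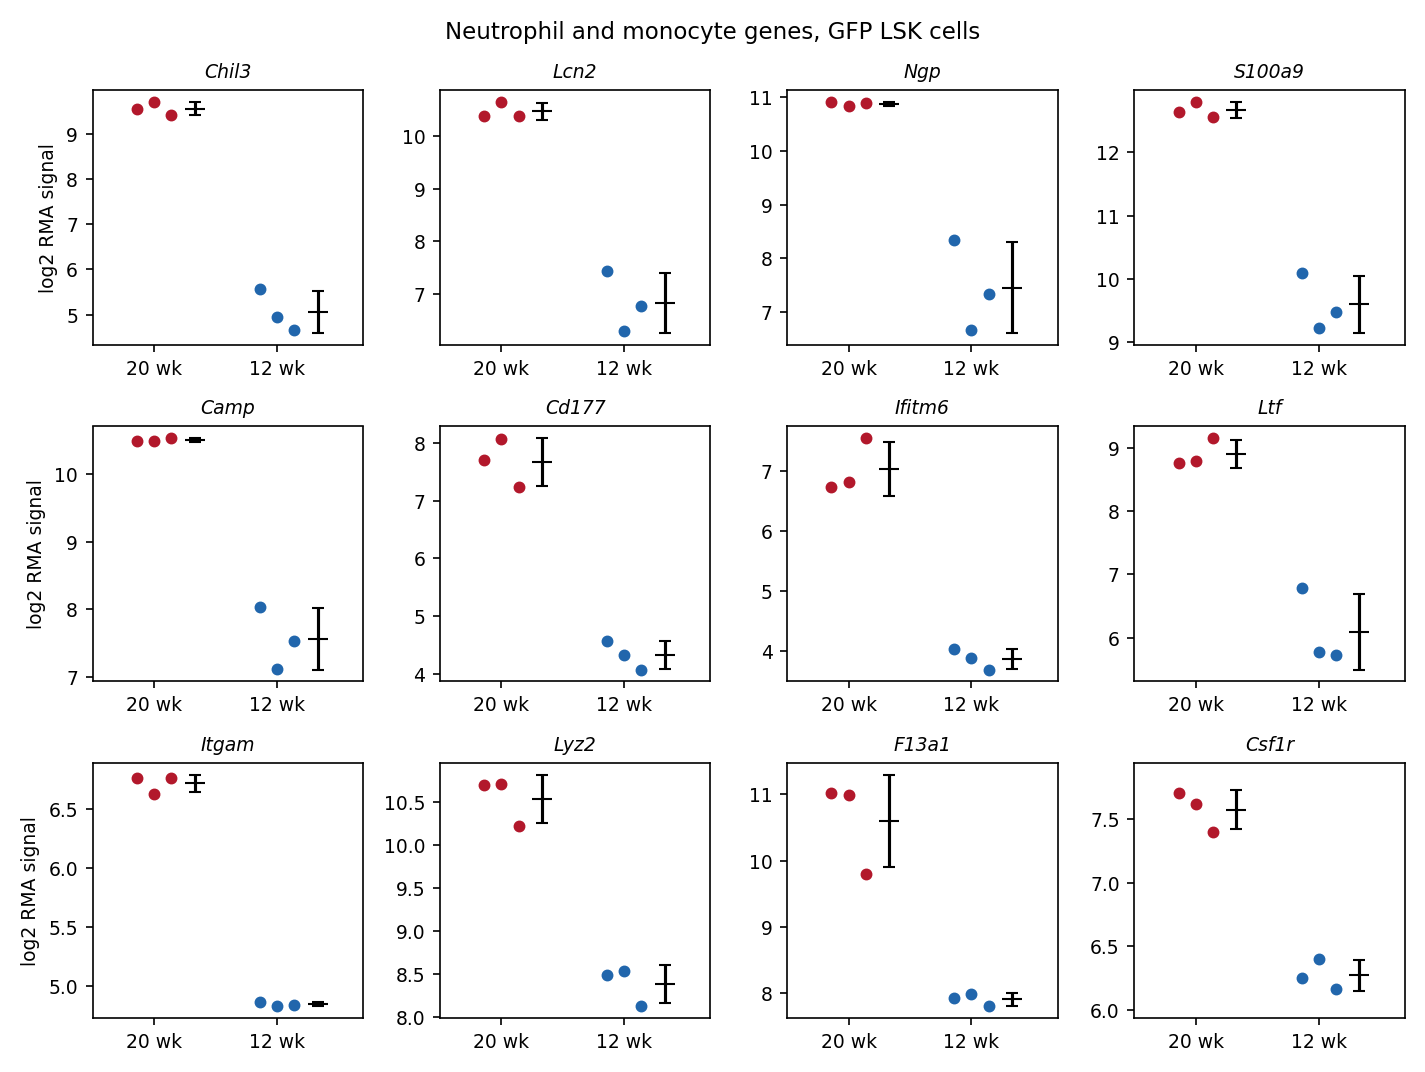
Points are the 3 arrays of GFP LSK cells at 20 weeks (left, red) and at 12 weeks (right, blue) on the log2 RMA scale, with the mean and SD in black; panels have their own y ranges. The 20-week arrays lie above the 12-week arrays in all 12 panels, by 4.50 for Chil3 and 1.30 for Csf1r.

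Fewer of the monocyte markers moved. Of 18 monocyte and macrophage markers, 5 were called higher and 1 lower (33.3%, against 2.37% of all genes), with a median of 0.17. Lyz2, lysozyme, had 10.70, 10.71 and 10.22 at 20 weeks, against 8.49, 8.54 and 8.13 at 12 weeks (2.16 ± 0.16, adjusted p = 5.28e-06, limma). F13a1, coagulation factor XIII subunit A, had 11.02, 10.99 and 9.80 at 20 weeks, against 7.93, 7.99 and 7.81 at 12 weeks (2.70 ± 0.47, adjusted p = 0.00632). Replicate 3 of 20 weeks was the lowest of its group for both genes but stood above all 12-week arrays. Csf1r, the receptor for macrophage colony-stimulating factor, had 7.70, 7.62 and 7.40 at 20 weeks, against 6.25, 6.40 and 6.16 at 12 weeks (1.30 ± 0.23, adjusted p = 0.00663). Cd68, a lysosomal protein of macrophages, rose by 1.23 (adjusted p = 0.0104) and lost its call without replicate 3 of 12 weeks, replicate 1 or replicate 2 of 20 weeks (adjusted p up to 0.0602). Adgre1, the F4/80 antigen, rose by 0.79 (adjusted p = 0.0415), and Cd163, a scavenger receptor for haemoglobin, fell by 0.98 (adjusted p = 0.0464). Both lost their call in 5 of the 6 fits without 1 array and kept it without replicate 3 of 20 weeks, with adjusted p up to 0.208 for Adgre1 and up to 0.193 for Cd163. C1qa, C1qb and C1qc, complement genes of tissue macrophages, differed by -0.16, -0.13 and -0.41 and were not called. The summed linear signal of the 18 markers was between 3641 and 5719 at 20 weeks and between 1537 and 1756 at 12 weeks. Between 3 and 6 of the 18 were called higher with 1 array left out.

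Among myeloid transcription factors and receptors, 3 of 14 were called higher and 0 lower (21.4%, against 2.37% of all genes), with a median of 0.35. Cebpd, a C/EBP family factor that rises during granulocyte differentiation, had 8.26, 8.61 and 7.48 at 20 weeks, against 6.33, 6.57 and 6.57 at 12 weeks (1.63 ± 0.27, adjusted p = 0.00417, limma). Klf4, a Krüppel-like factor of monocytes, had 6.64, 7.02 and 7.16 at 20 weeks, against 5.96, 5.96 and 5.56 at 12 weeks (1.11 ± 0.20, adjusted p = 0.0067). The third was Csf1r, and the groups were separate for each of the 3. Cebpb differed by 0.58 (adjusted p = 0.0538) and Irf8, a factor of monocyte and dendritic cell fate, by 0.78 (adjusted p = 0.148). Of 11 genes listed for granulocyte-monocyte progenitors and primary granules, 1 was called higher, Hp, haptoglobin, and 0 lower (9.09%, against 2.37% of all genes). Primary granule proteins are made earlier in granulocyte development than those of secondary granules. The list is broader than these proteins, and Hp is not taken here as 1 of them. Hp had 9.24, 9.73 and 8.70 at 20 weeks, against 7.67, 7.38 and 7.78 at 12 weeks (1.61 ± 0.34, adjusted p = 0.0201), and was called in 1 of the 6 fits without 1 array, the one without replicate 3 of 20 weeks (adjusted p up to 0.094 in the others). Mpo, myeloperoxidase, had 13.07, 13.04 and 12.68 at 20 weeks, against 12.55, 12.62 and 12.74 at 12 weeks (0.29 ± 0.28, adjusted p = 0.772). Elane, neutrophil elastase, differed by 0.62 ± 0.45 (adjusted p = 0.658). The groups overlapped for Mpo and did not for Elane.

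Outside these lists and the immunoglobulin genes given below, the named genes with the largest rises were Chil4, Nudt6, Cybb and Hbb-b2. Cybb, the gp91 subunit of the phagocyte oxidase that makes superoxide, had 9.17, 9.44 and 9.41 at 20 weeks, against 6.02, 5.80 and 5.82 at 12 weeks (3.46 ± 0.34, adjusted p = 0.000108, limma), and its 2 other probe sets rose by 3.29 and 3.65. Nudt6, a nudix hydrolase gene known for overlapping Fgf2 on the opposite strand, had 10.21, 10.20 and 8.89 at 20 weeks, against 6.09, 5.79 and 5.90 at 12 weeks (3.84 ± 0.33, adjusted p = 3.98e-05). The other probe set of Nudt6 rose by 3.77, and Fgf2 itself differed by 0.36 (adjusted p = 0.484). Both genes had separate groups, with replicate 3 of 20 weeks the lowest of its group for Nudt6. Chil4, a close relative of Chil3, rose by 4.39 ± 0.31 (adjusted p = 5.28e-06), but its probe set carries the array maker's mark for probes shared by several transcripts and its other probe set differed by -0.15, so which related transcript it measured was not tested. Hbb-b2, an adult beta globin, had 11.69, 11.24 and 11.76 at 20 weeks, against 8.40, 8.07 and 8.98 at 12 weeks (3.08 ± 0.40, adjusted p = 0.000717), also on a shared probe set. Fcnb, ficolin B of bone marrow granulocytes and monocytes, rose by 2.94 ± 0.31 (adjusted p = 0.000158). Averaged over both probe sets, Chil4 differed by 2.12.

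Immunoglobulin genes were higher at 20 weeks. Ighm, the heavy chain of immunoglobulin M, had 8.86, 7.70 and 9.30 at 20 weeks, against 4.05, 4.67 and 4.44 at 12 weeks (4.23 ± 0.39, adjusted p = 5.2e-05, limma). Igk-V21, a kappa variable segment, had 9.81, 8.53 and 10.84 at 20 weeks, against 7.82, 3.82 and 4.54 at 12 weeks (4.33 ± 0.96, adjusted p = 0.0268). Igkv6-15 had 8.42, 7.84 and 8.67 at 20 weeks, against 5.73, 4.47 and 5.53 at 12 weeks (3.06 ± 0.55, adjusted p = 0.00732). Replicate 2 of 20 weeks was the lowest of its group for all 3 genes, and no 20-week array reached the 12-week range. Igk-V21 kept its call without replicate 1 of 12 weeks or replicate 2 of 20 weeks and lost it without any one of the other 4 arrays (adjusted p up to 0.129). Of 16 immunoglobulin chain genes measured, grouped after their values were seen, 6 were called higher and 0 lower (37.5%, against 2.37% of all genes). Between 3 and 9 of the 16 were called higher with 1 array left out. Variable segments resemble each other, so their probe sets may share targets.

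Other B cell markers rose by less or were not called. Of 12, Ighm and Fcer2a were called higher and 0 were called lower (16.7%, against 2.37% of all genes), with a median of 1.41. Fcer2a, the low-affinity receptor for immunoglobulin E, had 5.46, 5.83 and 5.77 at 20 weeks, against 4.32, 4.06 and 3.87 at 12 weeks (1.60 ± 0.18, adjusted p = 0.000231, limma). Cd79a, the signalling chain of the B cell receptor, had 8.79, 7.31 and 9.98 at 20 weeks, against 6.39, 6.16 and 6.74 at 12 weeks (2.26 ± 0.68, adjusted p = 0.11). The groups of Cd79a did not overlap, and its 20-week arrays spread over more than 2 log2 units, with replicate 3 the highest. The summed linear signal of the 12 markers was between 1330 and 4736 at 20 weeks and between 816 and 871 at 12 weeks. Between 2 and 5 of the 12 were called higher with 1 array left out. Of 5 plasma cell markers, 0 were called in limma's fit and 4 had an unadjusted p under 0.05, all higher at 20 weeks. Jchain, which joins immunoglobulin polymers, was among the 5 and differed by 2.29 (adjusted p = 0.219).

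Megakaryocyte and platelet genes fell. Of 15 measured, 0 were called higher and 6 lower, where 2.37% of all genes were called. The median of the list was -0.84. For 12 of the 15, all 20-week arrays were below all 12-week arrays, against 14.1% of all genes. Pf4, platelet factor 4, fell the most of all called genes, with 8.28, 7.44 and 6.15 at 20 weeks, against 9.57, 10.08 and 9.53 at 12 weeks (-2.44 ± 0.43, adjusted p = 0.0067, limma). Itga2b, the CD41 integrin subunit of megakaryocytes and early progenitors, had 6.65, 6.63 and 6.89 at 20 weeks, against 8.55, 8.59 and 8.22 at 12 weeks (-1.73 ± 0.23, adjusted p = 0.000731). Rab27b, a small GTPase of platelet granule release, had 4.65, 3.95 and 5.01 at 20 weeks, against 6.45, 6.22 and 6.02 at 12 weeks (-1.70 ± 0.33, adjusted p = 0.012). All 3 had separate groups, and the 20-week arrays of Pf4 were spread widely, with replicate 3 the lowest. Plek, pleckstrin of platelets, fell by 1.57 (adjusted p = 0.0108), Itgb3, the partner of Itga2b, by 1.41 (adjusted p = 0.0429) and Gp1bb, a chain of the von Willebrand factor receptor, by 1.22 (adjusted p = 0.0302). Vwf, Gp9, Gp6 and Ppbp differed by -0.84, -0.42, 0.07 and 0.14 and were not called. Between 2 and 5 of the 15 were called with 1 array left out: Itga2b and Pf4 were called in all 6 fits, Rab27b lost its call without replicate 1 of 12 weeks or replicate 2 of 20 weeks (adjusted p up to 0.0703), and Plek, Gp1bb and Itgb3 lost theirs in 4, 5 and 5 of the 6 fits (adjusted p up to 0.0613, 0.13 and 0.205). Averaged over its probe sets, Itgb3 differed by -0.89.

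Regulators of erythroid and megakaryocyte fate also fell. Of 13 measured, 7 were called lower and 0 higher (53.8%, against 2.37% of all genes), with a median of -1.05, the lowest of the lists examined. Tal1, a basic helix-loop-helix factor of stem and erythroid cells, had 5.85, 6.08 and 6.26 at 20 weeks, against 7.94, 7.33 and 7.47 at 12 weeks (-1.52 ± 0.26, adjusted p = 0.00625, limma). Hemgn, hemogen, a nuclear protein of erythroid and stem cells, had 7.67, 7.35 and 7.65 at 20 weeks, against 8.98, 8.83 and 8.94 at 12 weeks (-1.36 ± 0.22, adjusted p = 0.00389). Gfi1b, a repressor needed for erythroid and megakaryocyte development, had 7.11, 6.49 and 7.74 at 20 weeks, against 8.38, 8.64 and 8.29 at 12 weeks (-1.32 ± 0.23, adjusted p = 0.0067). Each gene had separate groups, and replicate 2 of 20 weeks was the lowest array for Hemgn and Gfi1b. Car2, carbonic anhydrase 2, fell by 1.15 (adjusted p = 0.00876), Zfpm1, the GATA cofactor FOG-1, by 1.05 (adjusted p = 0.0151), Cnrip1 by 1.01 (adjusted p = 0.0325) and Epor, the erythropoietin receptor, by 0.84 (adjusted p = 0.0234). Gata1 and Klf1, the master factors of erythroid cells, differed by -0.92 (adjusted p = 0.111) and -1.20 (adjusted p = 0.0906), and Myb and Tfrc, the transferrin receptor, by 0.15 and 0.48, none of them called. Between 3 and 9 of the 13 were called with 1 array left out. Tal1, Hemgn and Gfi1b were called in all 6 such fits, Car2 lost its call without replicate 1 of 20 weeks (adjusted p = 0.0504), and Zfpm1 and Epor lost theirs without replicate 1 or 2 of either time (adjusted p up to 0.0898 and 0.124). Cnrip1 kept its call only without replicate 3 of 20 weeks (adjusted p up to 0.17 in the others).

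Markers of maturing red cells gave other values. Of 9 erythroblast markers, Slc4a1, the anion exchanger of red cells, was called higher and 0 were called lower (11.1%, against 2.37% of all genes). Slc4a1 had 7.45, 5.08 and 7.18 at 20 weeks, against 4.94, 4.99 and 4.71 at 12 weeks (1.69 ± 0.41, adjusted p = 0.0439, limma). Hba-a1, an alpha globin, had 10.99, 8.37 and 11.88 at 20 weeks, against 7.31, 7.09 and 9.0 at 12 weeks (2.62 ± 0.84, adjusted p = 0.142). Replicate 2 of 20 weeks lay near the 12-week arrays for Slc4a1 and among them for Hba-a1, while the others stood well above, and the call of Slc4a1 held in 1 of the 6 fits without 1 array, the one without replicate 2 of 20 weeks (adjusted p up to 0.211 in the others). Averaged over its probe sets, Slc4a1 differed by 1.0. The summed linear signal of the 9 markers was between 587 and 4251 at 20 weeks and between 490 and 928 at 12 weeks. Hbb-b2, the beta globin given above, is not among the 9. On its shared probe set it had a mean of 11.56 at 20 weeks and 8.49 at 12 weeks and was called in all 6 fits without 1 array (adjusted p up to 0.0064, limma). Its other probe sets differed by 2.71 and 0.55 and were not called over every named probe set (adjusted p = 0.057 and 0.106).

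**Figure D3:**
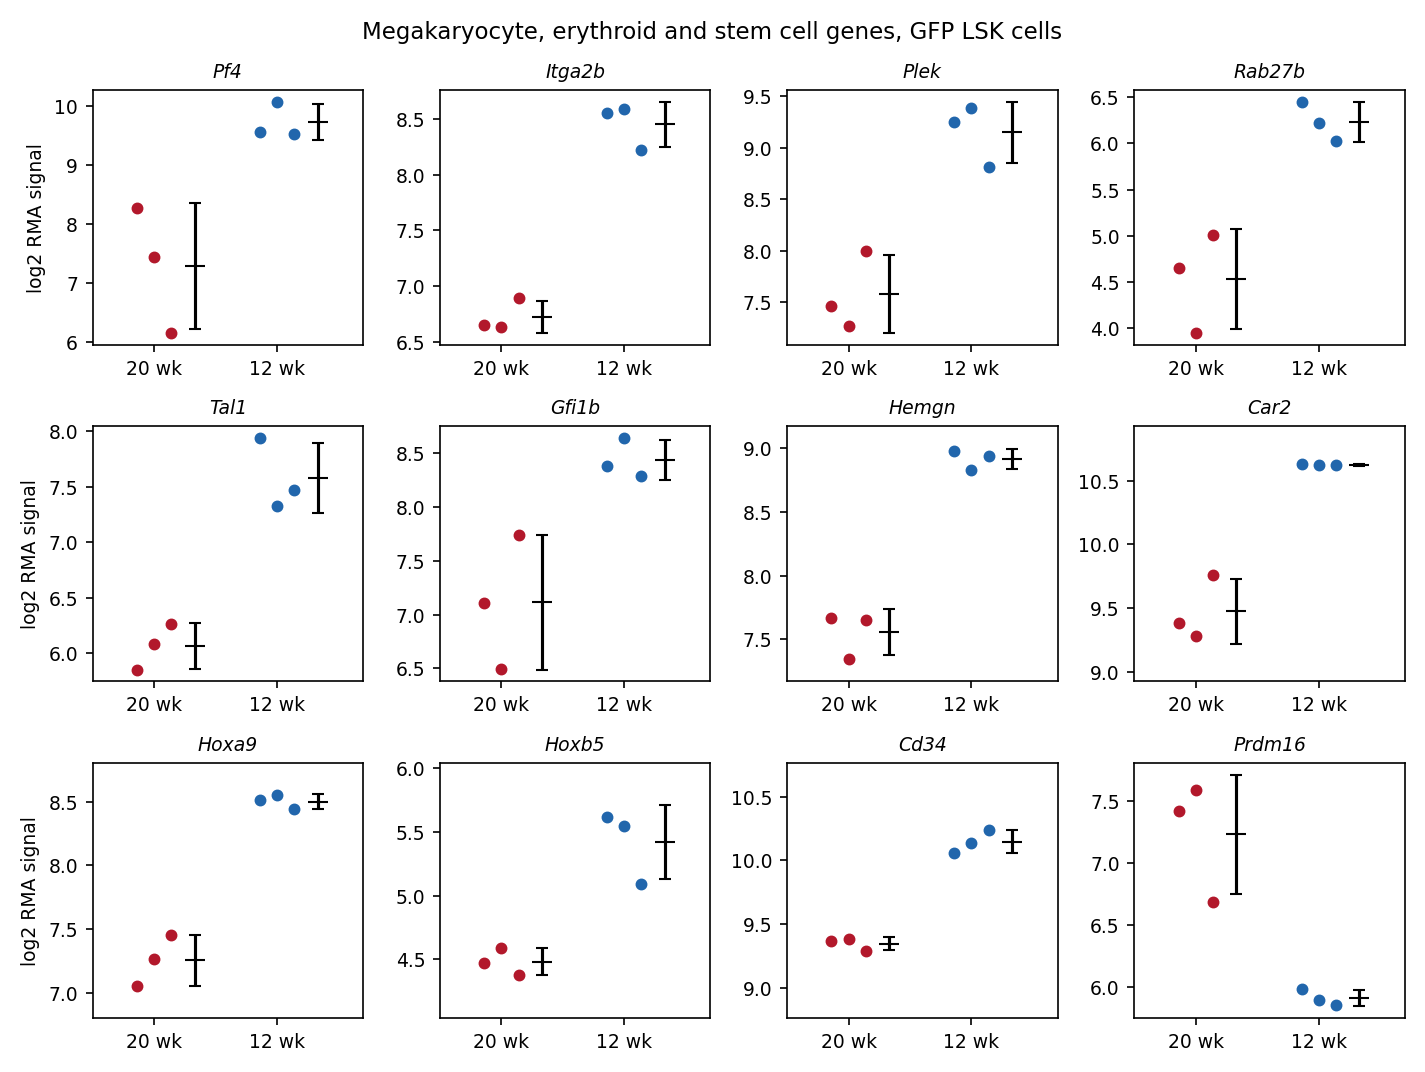
Points are the 3 arrays of GFP LSK cells at 20 weeks (left, red) and at 12 weeks (right, blue) on the log2 RMA scale, with the mean and SD in black; panels have their own y ranges. The 20-week arrays lie below the 12-week arrays in the first 11 panels, and above them for Prdm16 (7.42, 7.59 and 6.69 against 5.99, 5.90 and 5.86).

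Of 28 genes that mark long-term stem cells, 2 were called higher and 4 lower (21.4%, against 2.37% of all genes), and the median was -0.71. For 21 of the 28, all 20-week arrays were below all 12-week arrays, against 14.1% of all genes. Between 2 and 3 of the 28 were called lower with 1 array left out. The 4 were Gfi1b, which is also among the regulators above, Angpt1, Hoxb5 and Procr. Angpt1, angiopoietin-1, had 7.68, 8.01 and 7.05 at 20 weeks, against 8.93, 8.74 and 8.85 at 12 weeks (-1.26 ± 0.22, adjusted p = 0.00663, limma). Hoxb5, a homeobox gene used to mark long-term stem cells, had 4.47, 4.59 and 4.38 at 20 weeks, against 5.62, 5.55 and 5.09 at 12 weeks (-0.94 ± 0.17, adjusted p = 0.00739), and lost its call without replicate 1 of 12 weeks (adjusted p = 0.0505). Procr, the protein C receptor EPCR of stem cells, fell by 1.24 (adjusted p = 0.0471) and was called in none of the 6 fits without 1 array (adjusted p between 0.07 and 0.194). Mecom, the stem cell transcription factor Evi1, had 3.92, 3.91 and 4.06 at 20 weeks, against 4.49, 4.26 and 4.28 at 12 weeks (-0.38 ± 0.10, adjusted p = 0.0599), and Gata2, Hlf and Meis1 differed by -1.04, -0.71 and -0.74, none of them called. The other probe set of Meis1, a cofactor of Hox proteins, had a mean of 6.05 at 20 weeks and 7.54 at 12 weeks and fell by 1.49 (adjusted p = 0.0163 over every named probe set, limma). The groups of Angpt1, Hoxb5 and Mecom were separate. Mecom at both times and Hoxb5 at 20 weeks had low signals, below the median of all probe sets on each array (between 5.25 and 5.31).

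The 2 stem cell genes called higher were Prdm16 and Cdkn1c. Prdm16, a zinc finger factor needed for stem cell maintenance, had 7.42, 7.59 and 6.69 at 20 weeks, against 5.99, 5.90 and 5.86 at 12 weeks (1.31 ± 0.19, adjusted p = 0.00164, limma). Its 3 other probe sets rose by 2.28, 3.50 and 3.68, and averaged over all its probe sets it rose by 2.69. Cdkn1c, the cell cycle inhibitor p57 of resting stem cells, had 4.67, 4.85 and 4.95 at 20 weeks, against 4.07, 4.06 and 4.15 at 12 weeks (0.73 ± 0.12, adjusted p = 0.00411). Both genes were separate between the times and were called in all 6 fits without 1 array. Cdkn1c had a low signal, below the median of all probe sets on each array, which was between 5.25 and 5.31.

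Among Hox genes, Hoxa9, a homeobox factor that is high in stem and myeloid progenitors, had 7.05, 7.26 and 7.45 at 20 weeks, against 8.51, 8.55 and 8.44 at 12 weeks (-1.25 ± 0.18, adjusted p = 0.00179, limma). It was the 1 gene called of 10 of the HoxA cluster and its cofactors. Hoxb5 and Hoxb3 were called lower of 9 HoxB genes (22.2%, against 2.37% of all genes). Hoxb3 had 5.97, 6.01 and 5.50 at 20 weeks, against 7.02, 7.05 and 6.92 at 12 weeks (-1.17 ± 0.29, adjusted p = 0.0473), and was called in none of the 6 fits without 1 array (adjusted p between 0.0877 and 0.164). The other, dimmer probe set of Hoxb3 had a mean of 4.84 at 20 weeks and 6.16 at 12 weeks. It differed by -1.32 (adjusted p = 0.00017 over every named probe set, limma), where the brighter probe set had an adjusted p of 0.0542. Hoxb4 had 6.79, 6.95 and 6.33 at 20 weeks, against 6.83, 6.85 and 6.81 at 12 weeks (-0.14 ± 0.24, adjusted p = 0.9). Its groups overlapped. All 10 of the HoxA list and 8 of the 9 HoxB genes had a difference below 0, where 42.0% of all genes lay above 0. Without replicate 3 of 20 weeks, Hoxb4 differed by 0.04.

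Of 9 multipotent progenitor genes, Cd53 was called higher and Cd34 and Cd27 lower (33.3%, against 2.37% of all genes). Cd34, a sialomucin that is low on long-term stem cells of the mouse, had 9.37, 9.38 and 9.29 at 20 weeks, against 10.06, 10.14 and 10.24 at 12 weeks (-0.80 ± 0.13, adjusted p = 0.00465, limma). Cd27, a receptor of the tumour necrosis factor family on progenitors, had 9.02, 9.12 and 9.31 at 20 weeks, against 9.96, 9.93 and 9.94 at 12 weeks (-0.79 ± 0.14, adjusted p = 0.00632). Cd53, a tetraspanin of leukocytes, had 11.20, 11.22 and 11.05 at 20 weeks, against 10.70, 10.65 and 10.53 at 12 weeks (0.53 ± 0.10, adjusted p = 0.00964), and lost its call without replicate 3 of 12 weeks or replicate 1 of 20 weeks (adjusted p up to 0.0606). The 3 genes had separate groups. Flt3, the receptor that marks lymphoid-primed progenitors, had 7.63, 7.40 and 9.08 at 20 weeks, against 9.32, 9.48 and 8.85 at 12 weeks (-1.18 ± 0.33, adjusted p = 0.0792). Replicate 3 of 20 weeks lay within the 12-week range and the other 20-week arrays below it.

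The genes with the largest falls outside these lists were Cavin2, Ptger3, Stxbp4 and Mfsd2b. Cavin2, a coat protein of caveolae, had 4.60, 4.48 and 4.35 at 20 weeks, against 6.58, 7.24 and 6.89 at 12 weeks (-2.43 ± 0.42, adjusted p = 0.00632, limma). Ptger3, a receptor for prostaglandin E2, had 5.3, 4.96 and 5.55 at 20 weeks, against 7.48, 7.47 and 7.29 at 12 weeks (-2.14 ± 0.27, adjusted p = 0.000552). Stxbp4, a syntaxin-binding protein, had 5.65, 5.63 and 5.75 at 20 weeks, against 8.11, 8.12 and 7.23 at 12 weeks (-2.14 ± 0.25, adjusted p = 0.00032). Each had separate groups, with tight values at 20 weeks for Stxbp4, whose other 2 probe sets differed by -2.03 and 0.01 and whose average over probe sets was -1.39. Mfsd2b, an exporter of sphingosine-1-phosphate in red cells and platelets, had 5.00, 4.77 and 5.62 at 20 weeks, against 7.34, 7.29 and 7.15 at 12 weeks (-2.13 ± 0.33, adjusted p = 0.00288). Rab4a, Ppic, Aqp1, Ctla2a, Gnb4, Ctla2b and Golm2 fell by 1.83, 1.76, 1.74, 1.68, 1.66, 1.66 and 1.65. Over every named probe set, the other probe sets of Ptger3, Mfsd2b, Rab4a and Golm2 differed by -1.01, -0.86, -1.07 and -0.55 and were not called (adjusted p = 0.145, 0.203, 0.132 and 0.399, limma). Those of Cavin2 (-1.28 and -1.41) and Ctla2a (-1.67) were called. For Gnb4, 1 was called (-2.33) and 1 was not (-0.97). Aqp1, a water channel of red cells and endothelium, was called in 1 of the 6 fits without 1 array, the one without replicate 3 of 20 weeks (adjusted p up to 0.172 in the others), and Rab4a lost its call without replicate 2 of 12 weeks (adjusted p = 0.0523).

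Of the mitosis genes 0% and of the DNA replication genes 3.33% were called, near the 2.37% of all genes tested. Of 30 genes of G2, M and mitosis, 0 were called in limma's fit and 0 had an unadjusted p under 0.05. Their median was -0.07, and their differences ran from -0.31 to 0.21. Mki67, a marker of cycling cells, had 11.52, 11.37 and 11.54 at 20 weeks, against 11.33, 11.36 and 11.39 at 12 weeks (0.12 ± 0.12, adjusted p = 0.787, limma). Of 30 DNA replication genes, Chaf1b, a subunit of the chromatin assembly factor, was called lower, by 0.59 (adjusted p = 0.0179, limma), and the median of the list was -0.22. Of the 30, 26 had a difference below 0, and 5 had an unadjusted p under 0.05, all lower. All 20-week arrays were below all 12-week arrays for 14 of the 30, against 14.1% of all genes, and above them for 2, against 8.04%. Chaf1b lost its call without replicate 1 or 3 of either time (adjusted p up to 0.0938). Ccnd2, cyclin D2, fell by 0.69 (adjusted p = 0.0121) and lost its call without replicate 2 or 3 of 12 weeks or replicate 1 or 2 of 20 weeks (adjusted p up to 0.0726).

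Metabolic and signalling lists differed in their share of calls, from 0 to 16.7%, against 2.37% of all genes. Of 38 oxidative phosphorylation genes, 17 fatty acid oxidation genes and 19 Notch pathway genes, 0 were called in limma's fit, 1, 2 and 1 had an unadjusted p under 0.05, and the medians were -0.04, -0.13 and -0.04. Of 25 glycolysis and hypoxia genes, 3 were called (12.0%), 1 higher and 2 lower, and 13 had an unadjusted p under 0.05. Of 27 TGF-beta and BMP genes, 2 were called (7.41%), 1 in each direction, and 9 had an unadjusted p under 0.05. The 2 were Id1, higher by 0.79, and Tgfbr3, lower by 1.48. Id1 was called in 2 of the 6 fits without 1 array (adjusted p up to 0.124, limma). Tgfbr3 was called in none of them (adjusted p between 0.0667 and 0.142). Of 24 antioxidant genes, 9 had an unadjusted p under 0.05 and 4 were called higher (16.7%) and 0 lower, with between 1 and 5 called higher with 1 array left out. The 4 were Mgst1 and Mgst2, microsomal glutathione transferases, by 2.16 and 1.41, Gsr, glutathione reductase, by 1.32 and Gpx3, a secreted glutathione peroxidase, by 1.10. The other probe set of Mgst1 differed by -0.11 (adjusted p = 0.867 over every named probe set, limma), and averaged over both Mgst1 differed by 1.03. Gsr had 11.16, 11.28 and 10.28 at 20 weeks, against 9.44, 9.52 and 9.83 at 12 weeks (adjusted p = 0.0102). Mgst2 (adjusted p = 0.0039) was called in all 6 fits without 1 array, Gsr lost its call without replicate 1 of 12 weeks or replicate 1 or 2 of 20 weeks, and Mgst1 and Gpx3 kept theirs in the 1 fit without replicate 3 of 20 weeks (adjusted p up to 0.0665, 0.0779 and 0.174). Ldhb, the B subunit of lactate dehydrogenase, had 9.89, 10.10 and 8.68 at 20 weeks, against 7.36, 7.68 and 7.82 at 12 weeks (1.93 ± 0.30, adjusted p = 0.00288), while Hk1 and Slc2a3, a hexokinase and a glucose transporter, fell by 0.93 and 1.12 (adjusted p = 0.0276 and 0.0412) and each was called in 1 of those 6 fits (adjusted p up to 0.131 and 0.194). For Gsr and Ldhb, replicate 3 of 20 weeks was nearest to the 12-week arrays, and no arrays overlapped. Of 30 interferon response genes, Rtp4 was called lower (-0.94, adjusted p = 0.0329, limma), a share of 3.33% against 2.37% of all genes. Of the 30, 9 had a difference above 0 (42.0% of all genes did). Rtp4 was called in 1 of the 6 fits (adjusted p up to 0.172 in the others) and averaged -0.55 over its probe sets. Hmga2, a chromatin protein of fetal stem cells, had 6.44, 6.42 and 6.17 at 20 weeks, against 7.92, 7.30 and 7.29 at 12 weeks (-1.16 ± 0.21, adjusted p = 0.0067, limma). It was called in all 6 fits and was the 1 gene called of 19 chromatin regulators (5.26%, against 2.37% of all genes).

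**Figure D4:**
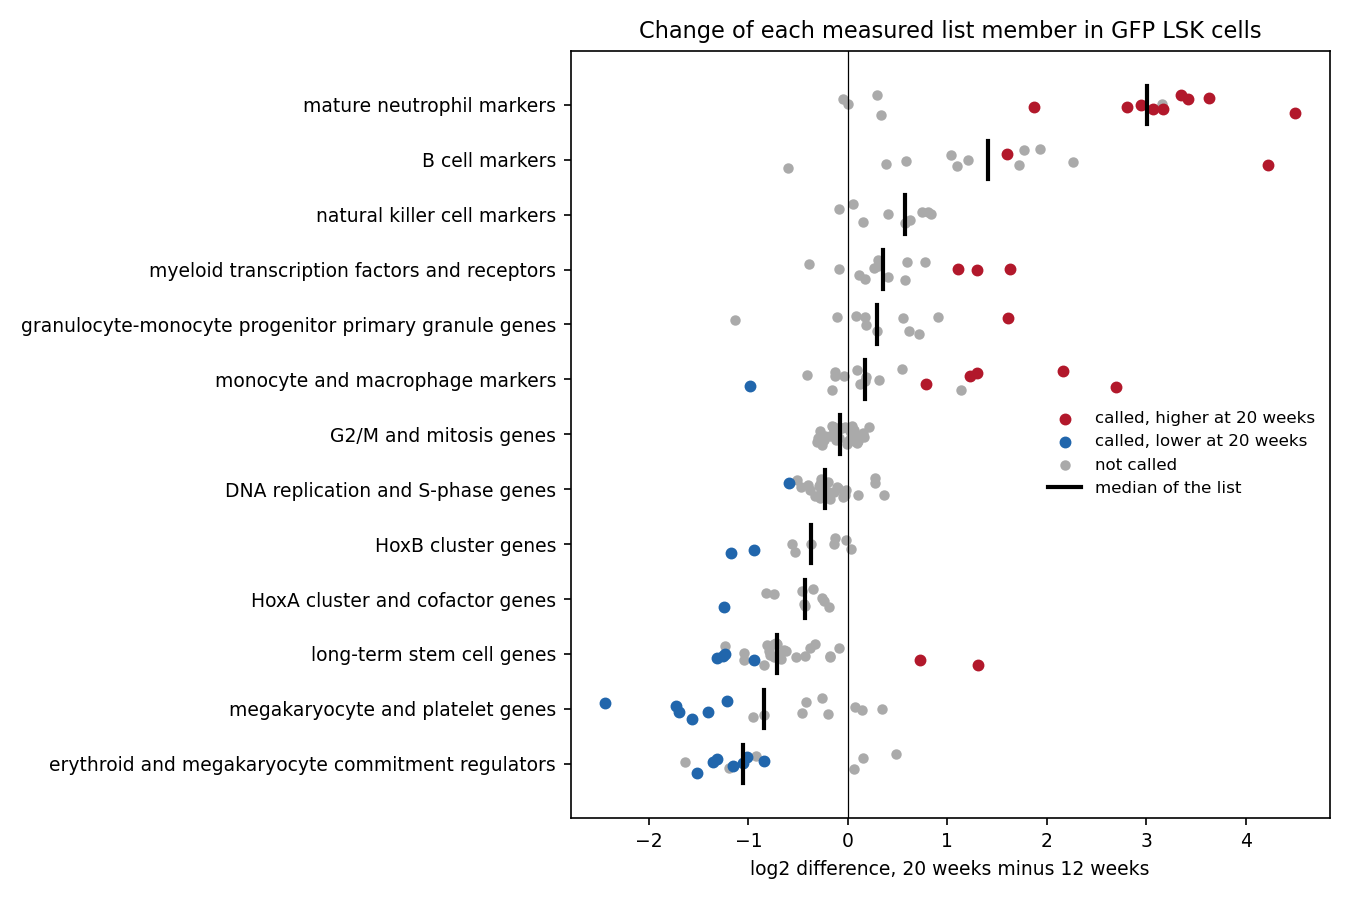
Each point is a measured member of a gene list, placed by its log2 difference in GFP LSK cells, 20 minus 12 weeks; red and blue mark members called higher and lower at 20 weeks, grey those not called, and black bars the medians. Medians run from 3.01 for mature neutrophil markers to -1.05 for erythroid and megakaryocyte commitment regulators.

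Markers of other cells that the gate could hold are given for what they measured beside these groups. Of 9 natural killer cell markers, 0 were called in limma's fit and 1 had an unadjusted p under 0.05, and their summed linear signal was between 506 and 704 at 20 weeks and between 491 and 558 at 12 weeks. Ncr1 had 4.07, 3.72 and 5.68 at 20 weeks, against 3.65, 3.89 and 3.66 at 12 weeks, and Klrd1 had 4.46, 4.01 and 6.33 at 20 weeks, against 4.06, 4.14 and 4.08 at 12 weeks. Both are receptors of natural killer cells, and in both only replicate 3 of 20 weeks stood high. Of 12 T cell markers, Lat was called lower (-0.70, adjusted p = 0.0185, limma) and 0 were called higher, a share of 8.33% against 2.37% of all genes. Lat was called in 1 of the 6 fits without 1 array (adjusted p up to 0.0882 in the others). Dntt and Rag1, which act in antigen receptor assembly, were also highest in replicate 3 of 20 weeks, with 8.76, 7.98 and 10.24 for Dntt at 20 weeks, against 9.92, 10.23 and 9.85 at 12 weeks, and 6.64, 5.62 and 7.84 for Rag1 at 20 weeks, against 4.97, 5.29 and 4.77 at 12 weeks. Neither was called. The part of mature neutrophils, monocytes, B cells, natural killer cells or erythroid cells among the sorted cells in the differences above was not tested.

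The same interval in HOXB4 cells gave fewer calls. In HOXB4 cells at 20 against 12 weeks, 43 genes were called (0.252% of those tested), 11 higher and 32 lower. The 2 comparisons share no arrays, and 4 genes were called in both. They are 0.985% of the GFP calls, where 0.252% of all genes were called in HOXB4 cells. They are 9.3% of the HOXB4 calls, where 2.37% of all genes were called in GFP cells. Of the 4 genes, A630001G21Rik and H3c11 moved the same way and Cd200r4 and Chil4 opposite ways. All 4 are named here because they are the overlap. The median difference in HOXB4 cells was 0.03 over the 211 genes higher in GFP cells at 20 weeks and -0.10 over the 195 lower. The GFP change minus the HOXB4 change was itself called for 87 genes (0.509%), 66 of them more positive in GFP cells and 21 more negative, and 74 of the 87 were also called in GFP cells. These 74 were 59 of the 211 genes higher and 15 of the 195 genes lower at 20 weeks.

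The largest difference between the arms was that of Chil3. Chil3 differed by 4.50 in GFP cells and by -1.91 in HOXB4 cells, where it had 6.11, 4.38 and 4.46 at 20 weeks, against 6.44, 7.10 and 7.14 at 12 weeks, and the difference between the changes was 6.40 ± 0.79 (adjusted p = 0.00176, limma). For Lcn2 the change was 3.63 in GFP cells and -1.92 in HOXB4 cells, and the difference between them was 5.55 ± 0.90 (adjusted p = 0.00995). The HOXB4 change of neither gene was called. Over the 14 neutrophil markers the median change was 3.01 in GFP cells and -0.89 in HOXB4 cells. Of the 14, 6 were called for the difference, all more positive in GFP cells, where 0.509% of all genes were called. Cybb (3.46 in GFP cells, -0.11 in HOXB4 cells), Ighm (4.23 in GFP cells, 0.27 in HOXB4 cells) and Nudt6 (3.84 in GFP cells, 0.27 in HOXB4 cells) differed too, by 3.57, 3.96 and 3.57 (adjusted p = 0.0025, 0.00255 and 0.00222). In HOXB4 cells Nudt6 stayed between 5.32 and 6.41 at both times.

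Among the genes that fell in GFP cells, Stxbp4 had the largest difference between the arms. Stxbp4 differed by -2.14 in GFP cells and 0.28 in HOXB4 cells (difference -2.43 ± 0.35, adjusted p = 0.00426, limma), and Hmga2 by -1.16 in GFP cells and 0.48 in HOXB4 cells (difference -1.64 ± 0.29, adjusted p = 0.0181). No megakaryocyte or platelet gene, erythroid and megakaryocyte regulator or long-term stem cell gene was called for the difference, with 0 of 15, 0 of 13 and 0 of 28 past the threshold in limma's fit and 5, 7 and 11 at an unadjusted p under 0.05. Their median changes were -0.84, -1.05 and -0.71 in GFP cells and -0.20, -0.25 and -0.05 in HOXB4 cells. Pf4 differed by -2.44 in GFP cells and -0.55 in HOXB4 cells (adjusted p of the difference 0.235), Itga2b by -1.73 in GFP cells and -0.26 in HOXB4 cells (adjusted p 0.0601) and Prdm16 by 1.31 in GFP cells and 0.05 in HOXB4 cells (adjusted p 0.0505). The count of 87 ran from 38 without replicate 2 of HOXB4 cells at 12 weeks to 222 without replicate 3 of GFP cells at 20 weeks. Its balance of 66 more positive and 21 more negative was not kept without replicate 1 of HOXB4 cells at 20 weeks, with 86 more positive and 89 more negative, or with array weights, with 285 and 278.

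**Figure D5:**
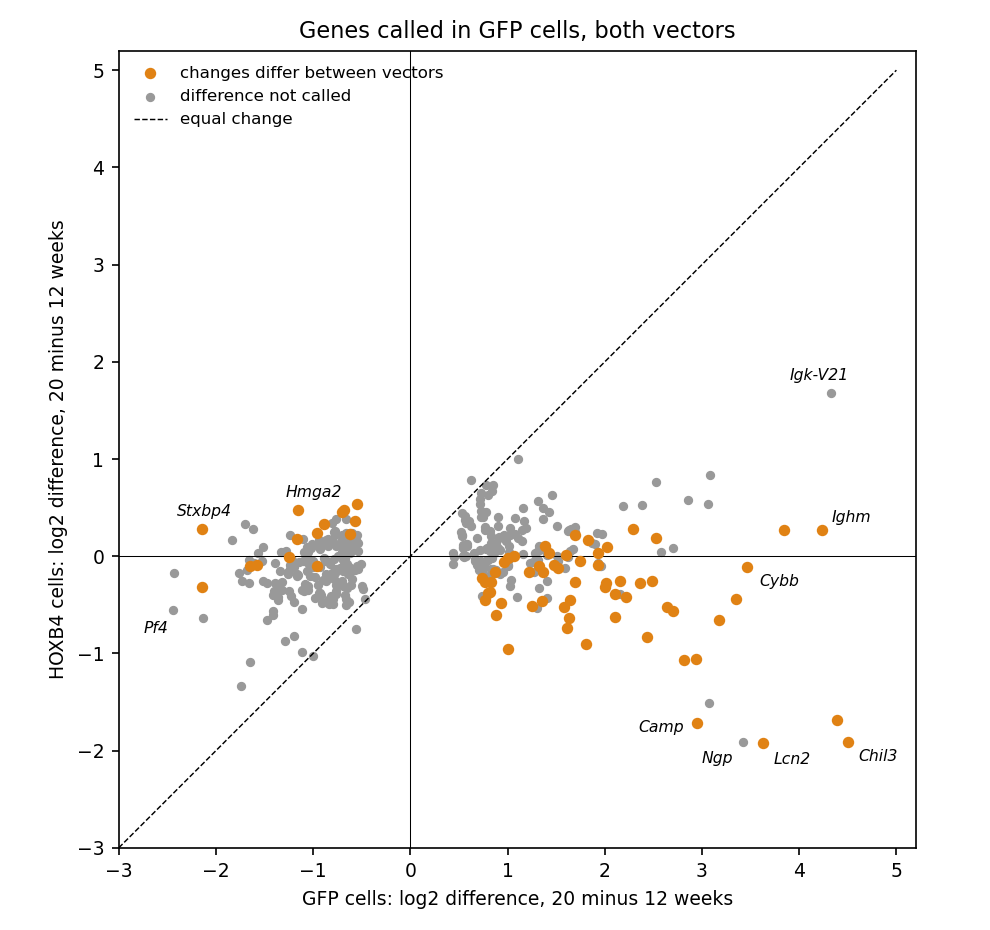
Each point is 1 of the 406 genes called in GFP LSK cells, with the log2 difference, 20 minus 12 weeks, of GFP cells on the x axis and of HOXB4 cells on the y axis; orange marks the 74 genes whose change was called different between the vectors, grey the others, and the dashed line marks equal change. Chil3, Lcn2 and Camp lie at the lower right, at 4.50, 3.63 and 2.95 in GFP cells and -1.91, -1.92 and -1.72 in HOXB4 cells.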

How the data were processed

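Labels name the strain, sex, tissue and vector. The authors' deposited values are log2 signals of 45141 probe sets on 15 arrays, from RMA and Partek 6.5 per the submitters' processing notes; filters are not given in the sources used here. The platform annotation and the GRCm38.p6 gene table gave 28898 probe sets 1 symbol, 551 several and 15692 none here. The brightest probe set (highest mean over arrays) stood for each of 17097 genes.

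All 15 arrays entered 1 model with a mean per group (limma 3.58.1, R 4.3.3, lmFit and eBayes, 10 residual and 4.55 prior degrees of freedom). Two-sided p-values were adjusted by Benjamini-Hochberg over all genes, with a threshold of 0.05. An exact permutation test of 3 against 3 arrays cannot go below 0.1, and the number of arrays limits the precision. Named genes are the 14 largest called rises and falls, the 5 largest differences between vectors in each direction, up to 6 members of each list with the smallest p, and 12 fixed genes; predicted and olfactory genes stayed out of the ranking. Other list members, Cnrip1 among them, were named after their values were seen. Members and lists were chosen with earlier results of these data known. The fit was tested on simulated data.

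Promoter windows came from RefSeq (GRCm38.p6). Windows of 2 lengths and 2 motifs were searched, C/EBP-type and GATA-type; the 250-base window replaced the 300-base one, and both are reported, after their counts had been seen.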

Additional observations from a re-analysis of the deposited data

Results flagged for a closer look

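The difference between the GFP change and the HOXB4 change, 20 against 12 weeks, was tested as the difference itself in limma's fit over all genes. It was called for 22 of the 276 genes named by the rule, against 0.509% of all genes tested. The rule picks genes partly by the size of this difference and of the GFP change within it, so the larger share was built in. Each value here is the GFP change minus the HOXB4 change on the log2 scale. Neutrophil markers were more positive in GFP cells, with 6.40 for Chil3, 5.55 for Lcn2, 4.66 for Camp, 3.89 for Ltf, 3.83 for Ifitm6 and 3.79 for Cd177. Outside that list, Fcnb was more positive by 4.0 and Chil4 by 6.07. The Chil4 value is from the shared probe set, and which related transcript it measured was not tested. The same held for the monocyte and phagocyte genes Cybb at 3.57, F13a1 at 3.25, Lyz2 at 2.42, Hp at 2.35 and Cebpd at 2.27, for the immunoglobulin and B cell genes Ighm at 3.96 and Fcer2a at 1.59, and for Nudt6 at 3.57. More negative in GFP cells were Stxbp4 at -2.43, Tmprss3 at -1.98, Ptger3 at -1.82, Hmga2 at -1.64, Il18 at -1.59 and Golm2 at -1.55. Tmprss3 and Il18 were not called in GFP cells themselves, with -0.98 (adjusted p = 0.0656) and -0.71 (adjusted p = 0.134). Il18, an interleukin, had 3.74, 3.18 and 3.82 in GFP cells at 20 weeks, against 4.36, 4.19 and 4.32 at 12 weeks, and 5.29, 5.26 and 6.01 in HOXB4 cells at 20 weeks, against 4.76, 4.52 and 4.63 at 12 weeks.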

How the results depend on the processing

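Of the 406 genes called in GFP cells, the count became 618 with the 6 GFP arrays alone, 625 with the 12 arrays of 12 and 20 weeks, 204 without variance moderation and 1892 with array weights, and it ran from 192 to 503 with 1 GFP array left out. The 87 genes called for the difference between vectors became 183 with the 12 arrays, 22 without moderation and 563 with array weights, and ran from 38 to 222 with 1 array left out. The counts under a filter on dim genes, the mean of probe sets, all probe sets, quantile normalisation, centred medians and a robust variance trend stayed within 1.5 times of both. The share of GFP calls that were higher at 20 weeks, 52.0%, was 61.9% with quantile normalisation, 58.8% without moderation, 47.7% with the 12 arrays and with the dim filter, 45.3% with the 6 GFP arrays, 42.9% with array weights, and 57.9% to 65.1% with 1 array left out. The cause of these moves was not tested. The share of promoter windows with AGATAA among megakaryocyte genes was 9.09% in 250 bases and 27.3% in 300 bases, an alternative added after seeing the data. The replicate number as a block gave 352 genes for the GFP comparison and 76 for the difference; the labels do not say that a number marks a shared mouse or batch, and same-numbered arrays correlated at -0.08, -0.17 and -0.11 in their deviations. Without moderation, Lcn2, Pf4, Cavin2, F13a1 and Igkv6-15, called in every fit without 1 array, had adjusted p of 0.0558, 0.0558, 0.0540, 0.0548 and 0.0610. No called gene named by the rule changed sign under the alternatives tried; Hoxb4, not called, differed by -0.14 and by 0.04 without replicate 3 of 20 weeks.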
